A study of Arabidopsis thaliana with 8 samples.

Results

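AT3G55920 and AT5G59330 are 2 genes of Arabidopsis thaliana that were chosen from measured values, because their signals fell to the background of the array in the ago1-27 mutant. They are 2 of the 13350 genes with a probe set that the platform annotation pairs with a single gene, and each has 1 such probe set, 251772_at for AT3G55920 on chromosome 3 and 247713_at for AT5G59330 on chromosome 5. Vegetative shoot apices were taken from plants grown for 20 days in short days, and their amplified RNA was measured on 8 Affymetrix ATH1 arrays, 2 for each genotype. The genotypes were the wild-type accession Col-0, the mutant ago1-27, the mutant se-1, and se-1 carrying p35S::MIR156, which expresses a miR156 precursor from the broadly active viral 35S promoter and so shares the se-1 lesion with the se-1 group. Both mutants are represented by a single allele. Nothing in the labels tells whether the 2 samples of a genotype were grown or collected separately, so the p-values speak for the spread between these samples, which may be technical.

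ARGONAUTE1 (AGO1), changed in ago1-27, is the main Arabidopsis protein that binds microRNAs and cleaves or represses the transcripts they match, and SERRATE, changed in se-1, acts earlier, in the processing of microRNA precursors. AT3G55920 is a cyclophilin-like gene. Cyclophilins are peptidyl-prolyl isomerases, enzymes that help proteins fold, and the member SQUINT (SQN) is known to promote AGO1 activity in this plant. AT5G59330 is a lipid-transfer-like gene. Lipid transfer proteins are small secreted proteins that bind lipids, and many are made in the epidermis of young shoots.

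AT3G55920 gave signals of 1.42 and 1.23 on the 2 ago1-27 arrays, against 317 and 266 for Col-0, 287 and 260 for se-1, and 251 and 222 for se-1 p35S::MIR156. The 6 arrays outside ago1-27 lay between 222 and 317, and neither ago1-27 array came near them. Signals are linear probe set values that the authors scaled to a common mean on every array. Background was read from the 27 control probe sets for bacterial genes, which match no plant transcript. The highest of these was 22.0 and 34.1 on the ago1-27 arrays, and it was between 14.2 and 34.1 over the 8 arrays. On the ago1-27 arrays AT3G55920 was dimmer than 19 and 22 of the 27 bacterial controls, and 5.76% and 3.34% of the plant probe sets were dimmer than it. In Col-0 it was brighter than all 27 bacterial controls, by 18.5 and 10.4 times the highest one.

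AT5G59330 gave signals of 3.82 and 4.99 on the ago1-27 arrays, against 482 and 430 for Col-0, 190 and 228 for se-1, and 457 and 282 for se-1 p35S::MIR156. Here too both ago1-27 arrays lay apart from the other 6, which spanned 190 to 482. In ago1-27 it was dimmer than 14 of the 27 bacterial controls on each array, and 13.1% and 13.8% of the plant probe sets were dimmer still. In bulk tissue, fewer cells that express a gene and less transcript per cell cannot be told apart.

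**Figure D1:**
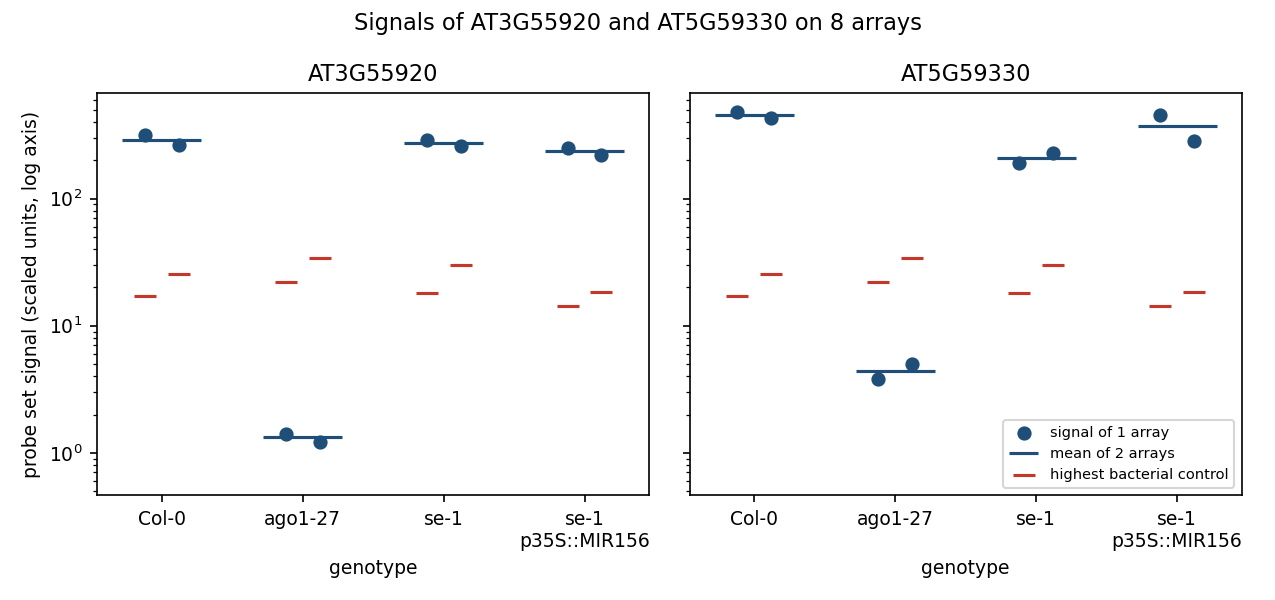
Probe set signals (scaled units, log axis) of AT3G55920 and AT5G59330 on the 2 arrays of each genotype, with the mean of 2 arrays as a line and the highest bacterial control of each array as a short red mark. In ago1-27 both genes lie below the red marks, with AT3G55920 at 1.42 and 1.23 and AT5G59330 at 3.82 and 4.99, and on the other 6 arrays both lie above them.

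Because the ago1-27 signals lie within background, only lower bounds of the differences are known. These were taken as the geometric mean of the brighter genotype over that of the highest bacterial signals on the ago1-27 arrays. They hold for that background level only and leave out the spread between arrays. With background at the highest bacterial signal over all arrays, the Col-0 bounds were 8.53 for AT3G55920 and 13.4 for AT5G59330. AT3G55920 was at least 10.6-fold higher in Col-0 than in ago1-27, at least 9.99-fold higher in se-1 and at least 8.62-fold higher in se-1 p35S::MIR156. For AT5G59330 the bounds were at least 16.7-fold in Col-0, at least 7.62-fold in se-1 and at least 13.1-fold in se-1 p35S::MIR156. The ago1-27 values chose both genes, so these bounds describe the choice and carry no test (0.911% of tested probe sets were called lower and 0.754% higher in ago1-27 than in Col-0), and the 3 bounds of each gene share the same ago1-27 arrays.

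Few other probe sets had this pattern, and none of them was as bright. Over all 22746 plant probe sets, 87 were within background on both ago1-27 arrays and above it on all 6 others. AT5G59330 and AT3G55920 ranked 1 and 2 among these by the geometric mean of the 6 other arrays, with 324 and 265, and the next was AT5G10580 with 88.1. The median of the 87 was 39.0, close to background. Put the other way, 10338 plant probe sets were above background on the 6 other arrays with a geometric mean over 100, and AT3G55920 and AT5G59330 were the only 2 of these within background on both ago1-27 arrays. A further 18 were within background on 1 of the 2. The count of 87 rose to 447 without ago1-27 replicate 1, to 155 without ago1-27 replicate 2 and to 152 without se-1 replicate 2, and both genes kept ranks 1 and 2 without each of the 8 arrays in turn. Both genes were chosen for this pattern from these same values, so their ranks describe the choice and carry no test.

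**Figure D2:**
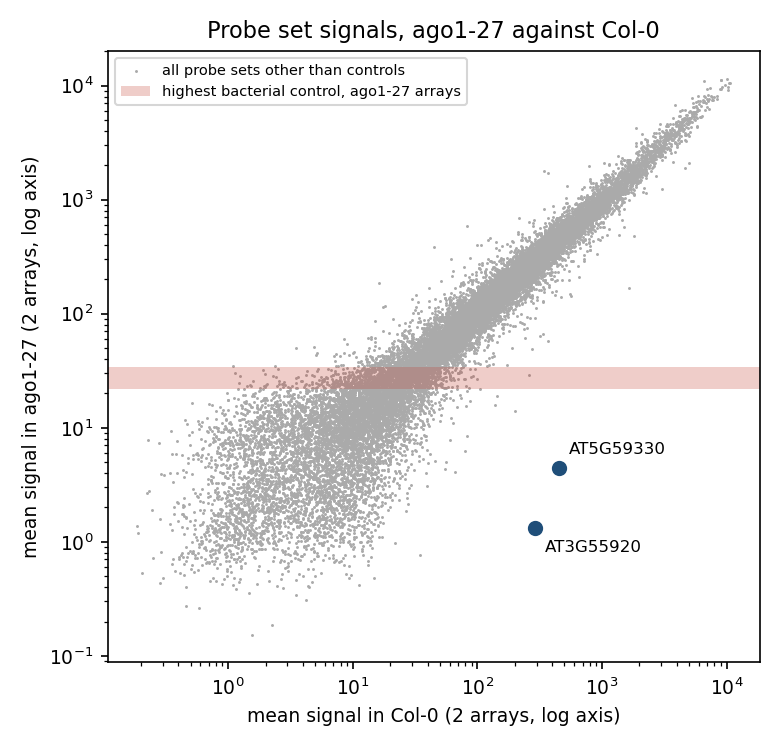
Mean signal of each plant probe set in ago1-27 against Col-0 (2 arrays each, log axes), with the range of the highest bacterial control on the ago1-27 arrays as a band. AT3G55920 and AT5G59330 stand below the cloud, at 292 and 456 in Col-0 and at 1.32 and 4.40 in ago1-27.

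Both genes were set beside the probe sets just outside the limit, only among those with a geometric mean over 100 elsewhere. Dimmer probe sets also lay deep within background in ago1-27. AT3G05170, named after its values were seen, gave 0.614 and 0.932 there, against 40.3 elsewhere. The higher ratio of an ago1-27 signal to the background of its array was 0.0645 for AT3G55920 and 0.174 for AT5G59330. The next probe sets with a listed gene and a geometric mean over 100 elsewhere, chosen after their values were seen, were AT2G20670 at 1.02, AT4G11190 at 1.11 and AT4G36430 at 1.15. AT2G20670 gave 22.3 and 19.4 in ago1-27 against 108 elsewhere, AT4G11190 gave 24.4 and 13.4 against 147, and AT4G36430 gave 25.1 and 5.66 against 114. Inside the limit, the genes that followed in order of Col-0 mean were AT3G57010 with 86.1 ± 38.2, AT5G40020 with 79.5 ± 10.3, AT5G10580 with 73.3 ± 12.4, AT4G30450 with 69.4 ± 23.6 and the expansin-like gene EXLA3 with 61.2 ± 6.65 (SD, n = 2). The last of the 10 brightest listed genes were AT5G10970, AT1G76630 and AT2G38600, with Col-0 means of 56.0, 55.8 and 54.2. Their bounds for Col-0 over ago1-27 ran from at least 1.94-fold for AT2G38600 to at least 2.99-fold for AT3G57010.

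**Figure D3:**
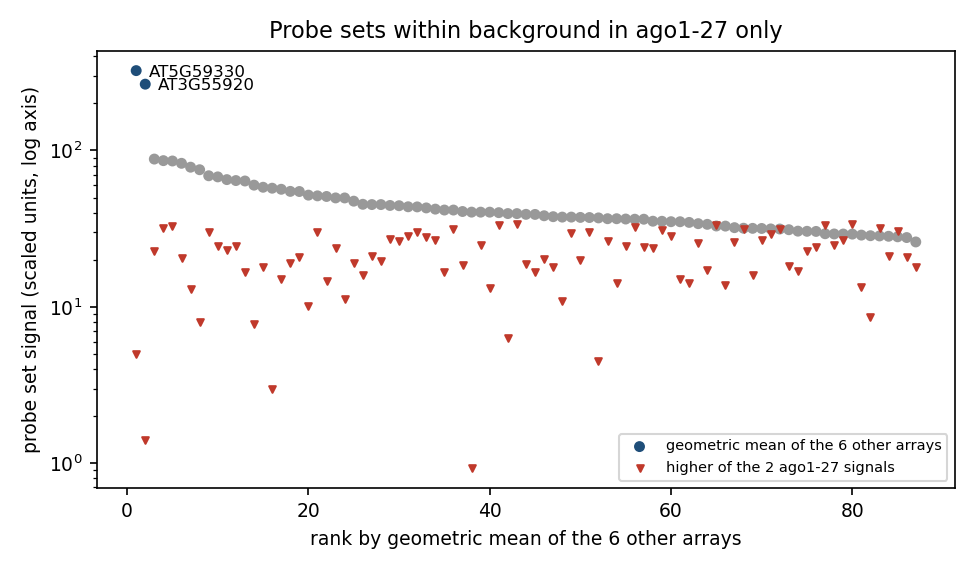
The 87 probe sets within background on both ago1-27 arrays and above it on the other 6, ranked by the geometric mean of those 6 (circles, log axis), with the higher of the 2 ago1-27 signals as triangles. AT5G59330 at 324 and AT3G55920 at 265 are set off from the rest, which begin at 88.1.

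The same count in the other genotypes was smaller. Probe sets within background in Col-0 only numbered 11, in se-1 only 16 and in se-1 p35S::MIR156 only 3, and 0, 0 and 1 of them had a geometric mean over 100 elsewhere. The ago1-27 arrays also had more probe sets within background on both arrays in all (6583, against 5327 to 6000 in the other genotypes). On the actin controls, whose 3' signal exceeds the 5' signal more when RNA is shorter, the ratio was 4.83 and 4.40 for ago1-27 and 2.81 to 4.22 on the other 6. The part of these array properties in the counts, and in the ago1-27 signals of AT3G55920 and AT5G59330, was not tested.

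Setting the transgenic line against plain se-1 addresses the effect of extra miR156 when SERRATE is impaired. The choice of the genes used all 8 arrays, since both had to be above background outside ago1-27, so this comparison is not fully independent of it, although no ago1-27 or Col-0 array enters the difference. The spread behind the SE, interval and p was estimated from all 8 arrays, among them the ago1-27 pair at background. Neither gene passed the test. AT5G59330 went from 209 ± 26.5 in se-1 to 369 ± 124 with the transgene (SD, n = 2), and the pairs of arrays did not overlap. Its log2 change was 0.74 (SE 0.224, 95% interval 0.27 to 1.22, adjusted p = 0.309 by limma over 15922 probe sets, where 0.358% were called, 0.22% higher and 0.138% lower), and the unadjusted p was 0.00458. The value ranged from 0.41 without the first transgene array to 1.08 without the second, which lay 1.62-fold apart. Among the 9037 tested probe sets with a mean signal of 100 to 1000 in that genotype, 3.10% had a wider spread between the 2 arrays, and the median ratio was 1.14.

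AT3G55920 went from 273 ± 19.3 in se-1 to 236 ± 20.1 with the transgene (SD, n = 2). Its log2 change was -0.20 (SE 0.195, 95% interval -0.61 to 0.22, adjusted p = 0.826 by limma). The interval runs from a ratio of 0.654 to one of 1.16, so a fall to 0.654 of the se-1 level is within it. Its pairs of arrays were close in each genotype, with ratios of 1.11 to 1.19 outside ago1-27.

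Setting se-1 against Col-0 addresses the impairment of SERRATE, through this single allele. The choice of the genes used both the Col-0 and the se-1 arrays, since both genes had to be above background there. This comparison is therefore not independent of the choice, and each comparison's own values are given here. AT5G59330 fell in se-1, from 456 ± 37.0 to 209 ± 26.5 (SD, n = 2), and both se-1 arrays lay below both Col-0 arrays. The log2 change was -1.07 (SE 0.224, 95% interval -1.55 to -0.60, adjusted p = 0.0279 by limma), a ratio of 0.476. This makes 1 of the 2 genes called lower, and 0.345% of the 15922 probe sets were called lower in this comparison (0.741% higher). The call ended without any 1 of the 4 arrays, with adjusted p of 0.183 and 0.0850 without se-1 replicates 1 and 2 and 0.296 and 0.128 without Col-0 replicates 1 and 2. It also ended with a pseudocount of 1 (adjusted p = 0.0602), with no filter on dim probe sets (0.136) and with no trend in the spread (0.0737), while the log2 change stayed between -1.19 and -0.93 in every setting tried.

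AT3G55920 was 292 ± 36.4 in Col-0 and 273 ± 19.3 in se-1 (SD, n = 2), and the arrays of these genotypes overlapped. The log2 change was -0.08 (SE 0.195, 95% interval -0.50 to 0.33, adjusted p = 0.926 by limma). Whether AT3G55920 and AT5G59330 differ from each other in their response to se-1 was not tested.

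Against Col-0, the line with both the se-1 lesion and the transgene gave log2 changes of -0.28 for AT3G55920 (SE 0.195, 95% interval -0.70 to 0.13, adjusted p = 0.742 by limma) and -0.33 for AT5G59330 (SE 0.224, 95% interval -0.80 to 0.15, adjusted p = 0.740), with 0.842% of probe sets called, 0.565% higher and 0.276% lower. The choice of the genes used the arrays of both these genotypes, so this comparison is not independent of it either. From highest to lowest mean, AT5G59330 stood in the order Col-0, se-1 p35S::MIR156, se-1 and ago1-27. Col-0 and se-1 p35S::MIR156 overlapped. For AT3G55920 the order was Col-0, se-1, se-1 p35S::MIR156 and ago1-27, and the first 3 means differed by no amount that passed the test. Over the 6 arrays outside ago1-27, the coefficient of variation was 12.2% for AT3G55920 and 36.7% for AT5G59330.

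No tested gene within 15 places of AT3G55920 or AT5G59330 on their chromosomes was called in ago1-27 against Col-0. These counts of 0 are near the share of 1.66% called over all probe sets. Of the 30 genes within 15 places of AT3G55920 in the gene order of assembly TAIR10.1, 12 had a probe set listed with 1 gene and 7 of these were bright enough to test. In ago1-27 against Col-0, 0 of these 7 were called by limma and 0 had an unadjusted p under 0.05, with log2 changes between -0.11 and 0.46, a median of -0.02 against 0.02 over all probe sets, and a lowest adjusted p of 0.447 (1.66% of all probe sets were called). Nearest of those tested were AT3G55940, 3 places away, with 21.5 and 22.8 in Col-0 and 32.4 and 41.0 in ago1-27, and AT3G55960, 5 places away, with 329 and 265 in Col-0 and 277 and 304 in ago1-27. The Calvin cycle gene SBPASE, 14 places away, gave 797 and 781 in Col-0 and 831 and 1235 in ago1-27. The adjacent AT3G55930 was within background on 7 of the 8 arrays, and so gives no comparison. AT3G55890, 3 places away and too dim over all arrays to be tested, gave 39.6 and 45.0 in ago1-27, above background on both arrays, and 13.7 and 12.1 in Col-0, within it.

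Around AT5G59330, 7 of 30 genes had a listed probe set, all 7 were tested, and all were above background on both ago1-27 arrays. Again 0 were called by limma in ago1-27 against Col-0, near the share of 1.66% over all probe sets, and 1 had an unadjusted p under 0.05. Log2 changes lay between -0.33 and 0.74, with a median of 0.04 and a lowest adjusted p of 0.309 by limma. No gene nearer than 3 places had a listed probe set. AT5G59305, 3 places away, gave 70.2 and 83.5 in Col-0, and its ago1-27 signals of 74.4 and 44.1 overlapped these. AT5G59350, 3 places away on the other side, gave 85.8 and 110 in Col-0, and both its ago1-27 signals, 112 and 143, were higher. The 1 neighbour called in any of the 4 comparisons was AT5G59305, which was lower in se-1 p35S::MIR156 than in Col-0 (log2 change -1.40, adjusted p = 0.0440 by limma), with 1 of the transgene arrays within background. That call ended without each of the 4 arrays of these genotypes in turn. It also ended with a pseudocount of 64, no filter, quantile normalization or no trend in the spread.

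**Figure D4:**
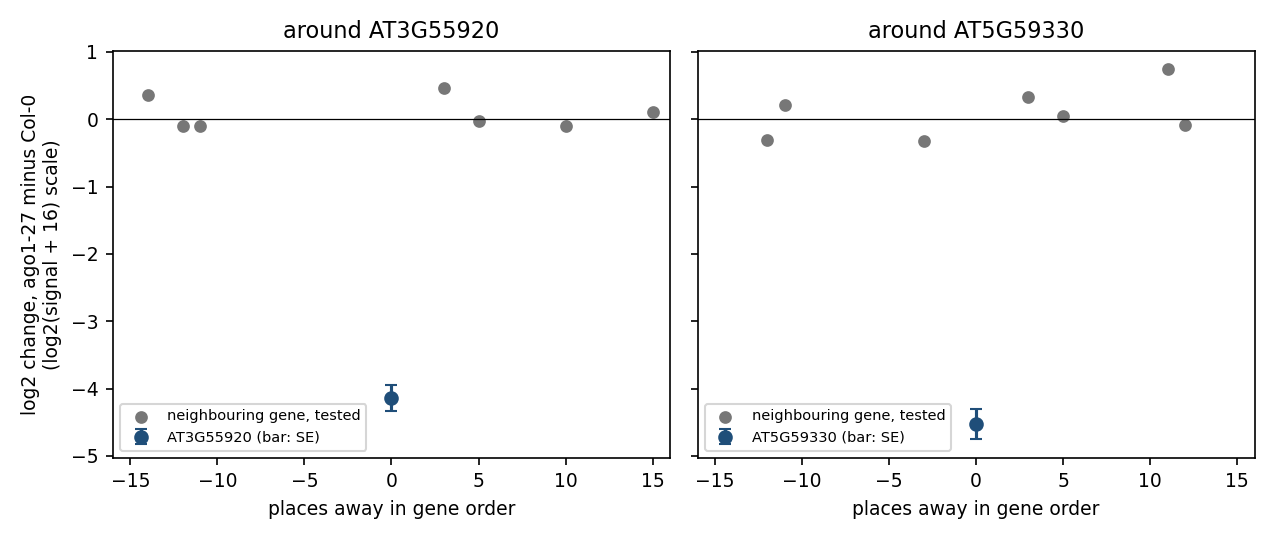
Log2 change of ago1-27 against Col-0 on the log2(signal + 16) scale for tested genes within 15 places of AT3G55920 and AT5G59330, by place in the gene order, with the fitted value of each of the 2 genes at 0 (bar, SE). Neighbours lie between -0.33 and 0.74, while the fitted values of AT3G55920 and AT5G59330, which depend on the pseudocount because ago1-27 is within background, are -4.15 and -4.53.

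Relatives of AT3G55920 were followed in a list of cyclophilins. Of 29 cyclophilin genes, 19 had a listed probe set and 18 were tested. Apart from AT3G55920, 0 of 17 were called by limma in any of the 4 comparisons, where 1.66% (ago1-27 against Col-0), 1.09% (se-1 against Col-0), 0.358% (transgenic line against se-1) and 0.842% (transgenic line against Col-0) of all probe sets were called. A count of 0 of 17 is near those shares. The other cyclophilins had log2 changes in ago1-27 against Col-0 between -0.21 and 0.51, a median of 0.02 (0.02 over all probe sets) and a lowest adjusted p of 0.380. At an unadjusted p under 0.05 there was 1 in ago1-27 and 1 in se-1 against Col-0, and 0 in each comparison of se-1 p35S::MIR156. AT4G34960 had 277 ± 24.5 in Col-0 and 250 ± 32.8 in ago1-27, and AT2G21130 had 822 ± 22.1 and 901 ± 5.88 (SD, n = 2). The tested SQN probe set, for the cyclophilin that promotes AGO1 activity, gave 50.3 ± 16.5 for Col-0, 60.9 ± 39.9 for ago1-27, 60.9 ± 21.7 for se-1 and 61.5 ± 2.73 for se-1 p35S::MIR156 (SD, n = 2), and a second SQN probe set was within background on every array. CYP71, a cyclophilin that acts on chromatin, had 270 ± 7.37 in Col-0 and 260 ± 13.4 in ago1-27 (SD, n = 2).

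FKBP proteins are the other large family of prolyl isomerases. Of 21 listed genes 12 were tested, and 1 was called by limma, lower, in ago1-27 against Col-0, where 0.911% of all probe sets were called lower. AT5G48570 fell from 83.9 and 106 to 44.6 and 29.4 (log2 change -1.07, adjusted p = 0.0406), with 1 ago1-27 array within background. This call ended without ago1-27 replicate 2, Col-0 replicate 1 or Col-0 replicate 2. It also ended with a pseudocount of 64, no filter, no trend in the spread or only these 2 genotypes in the fit. The median of the list was 0.08, and 0 of the 12 were called by limma in the other 3 comparisons (1.09%, 0.358% and 0.842% of all probe sets), where the lowest adjusted p was 0.282 and 1 or 2 had an unadjusted p under 0.05.

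Members of the lipid transfer list varied more. They were not chosen for nearness in sequence to AT5G59330. Of 36 genes in the lipid transfer list, 16 had a listed probe set, 11 were tested, and the other 5 were above background on 0 to 3 of the 8 arrays. Apart from AT5G59330, 2 of 10 were called lower in ago1-27 than in Col-0 and 0 higher, against 0.911% of all probe sets called lower and 0.754% higher. The list was drawn up with earlier results of these data known, so this count is no test of the family. AT3G18280 fell from 852 and 959 in Col-0 to 270 and 402 in ago1-27 (log2 change -1.41, adjusted p = 0.00116 by limma), and was well above background throughout. AT1G62510 gave 35.5 and 43.7 in Col-0 and 1.93 and 4.24 in ago1-27, within background and so at least 1.44-fold lower (adjusted p = 0.0291 by limma). Its call ended without each of the 4 arrays in turn. The call also ended with no filter, quantile normalization or only these 2 genotypes in the fit. The list median without AT5G59330 was -0.10.

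In se-1 against Col-0, AT5G01870 and AT5G48490 fell with AT5G59330, and AT3G53980 rose, so 3 of the 10 other members were called (1.09% of all probe sets). AT5G01870 fell from 1513 ± 205 to 722 ± 16.7 (SD, n = 2, log2 change -1.05, adjusted p = 0.0101 by limma), a call that ended without se-1 replicate 1, se-1 replicate 2 or Col-0 replicate 1. This call also ended with no filter or no trend in the spread. AT5G48490 fell from 183 ± 35.9 to 33.1 ± 14.8 (SD, n = 2, adjusted p = 0.000989 by limma), with 1 se-1 array within background. AT3G53980 rose from 197 ± 8.96 to 662 ± 93.5 (SD, n = 2, adjusted p = 0.000428 by limma). With the transgene added to se-1, 0 of the 10 were called by limma (0.358% of all probe sets), 5 had an unadjusted p under 0.05, and 8 of the 11 tested genes, AT5G59330 among them, had positive values, with a median of 0.52 against -0.03 over all probe sets and a lowest adjusted p of 0.0905. In se-1 p35S::MIR156 against Col-0, 3 of the 10 were called, against 0.842% of all probe sets (0.565% higher, 0.276% lower): AT3G53980 (log2 change 1.16) and AT2G45180 (0.97) higher, and AT5G48490 (-1.50) lower. Each of these 3 calls ended without 1 or more arrays. The list was drawn up with earlier results of these data known, and AT5G48490, AT3G53980 and AT1G62510 had stood out in them. Its counts of called members are therefore no test of the family in any comparison.

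**Figure D5:**
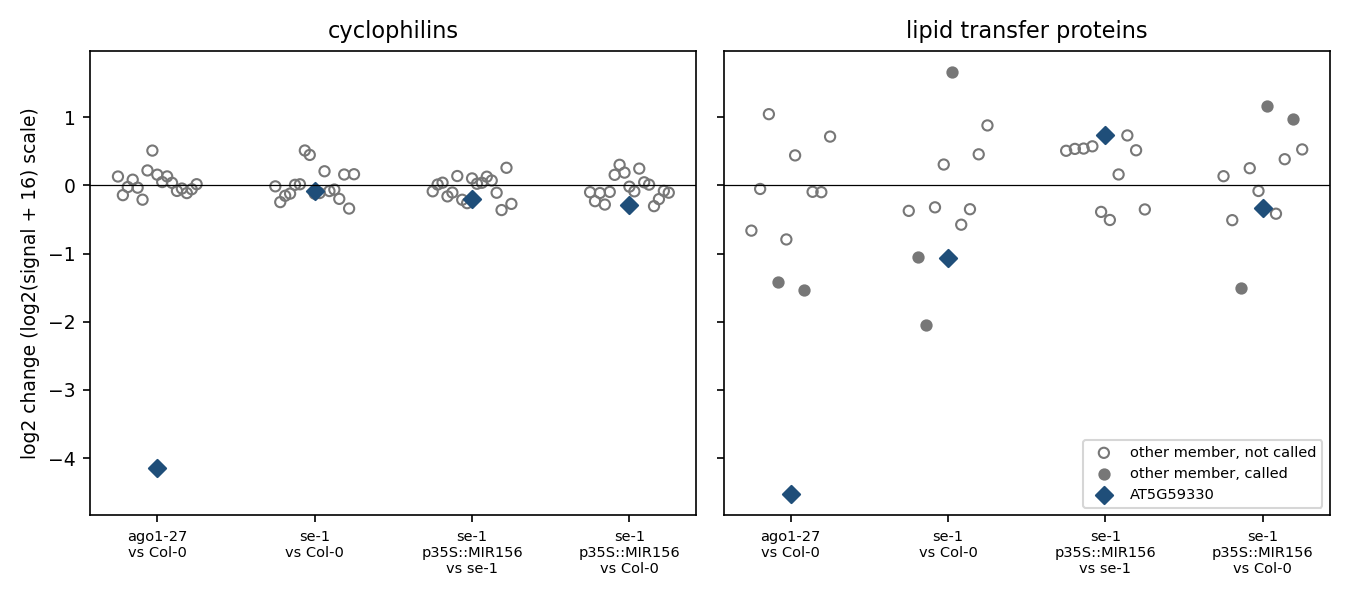
Log2 changes (log2(signal + 16) scale) of tested cyclophilins and lipid transfer genes in the 4 comparisons, with AT3G55920 and AT5G59330 as diamonds, members called at an adjusted p under 0.05 as filled circles and the others as open circles. The other cyclophilins lie between -0.36 and 0.51 throughout, and the other lipid transfer genes between -2.04 and 1.67.

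The genes whose levels ran most like the pair were sought among tested probe sets with 1 listed gene and genotype means at least 1 apart on the log2 scale, 441 candidates for each. Likeness was Pearson's r of log2(signal + 16) over the 8 arrays, which share the ago1-27 pair as their main contrast. The ago1-27 values chose both genes and weigh heavily in r, so the order describes the choice and carries no test. For AT3G55920 the order was AT5G40020 (r = 0.977), AT5G59330 (0.972), AT2G31010 (0.965), AT5G05960 (0.965) and AT1G67865 (0.959). AT5G40020 had means of 79.5 for Col-0, 6.22 for ago1-27, 65.6 for se-1 and 83.4 for se-1 p35S::MIR156. AT5G05960, at 646, 262, 772 and 780 in the same order, remained bright in ago1-27.

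For AT5G59330 the order was AT1G67865 (r = 0.992), the cytokinin-induced response regulator gene ARR15 (0.974), AT3G55920 (0.972), PYK10 (0.970) and AT5G40020 (0.967). AT1G67865 had 1377 ± 11.2 for Col-0, 491 ± 41.9 for ago1-27, 1045 ± 29.5 for se-1 and 1332 ± 47.0 for se-1 p35S::MIR156 (SD, n = 2), the same order of genotypes as AT5G59330 over a narrower range. ARR15 had means of 545, 196, 403 and 447 in these genotypes. Over the 6 arrays outside ago1-27, r between AT3G55920 and AT5G59330 was 0.182, against 0.972 over all 8. For the other genes named here, r without ago1-27 was not taken.

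PYK10, a beta-glucosidase abundant in roots, was the 1 of 7 root marker genes with a listed probe set. It fell, like AT5G59330, in ago1-27 (log2 change -3.24, adjusted p = 3.96e-06 by limma) and in se-1 (-1.09, adjusted p = 0.0455) against Col-0. Its likeness to AT5G59330 over these same arrays was already given above, so the shared falls are no separate result. The se-1 call ended without se-1 replicate 1, Col-0 replicate 1 or Col-0 replicate 2. With all arrays kept, it ended with a pseudocount of 1, no filter, quantile normalization, no trend in the spread or robust eBayes. With the transgene PYK10 rose over se-1 (log2 change 1.28, adjusted p = 0.0356 by limma), a call that ended without either transgene array or se-1 replicate 1. This call also ended with a pseudocount of 1, no filter or no trend in the spread. Its means were 1663 for Col-0, 167 for ago1-27, 786 for se-1 and 1941 for se-1 p35S::MIR156, and its part in the values of AT5G59330 was not tested. Of 12 shoot meristem marker genes only CLV3 had a listed probe set, and it was within background on 7 of 8 arrays, while the 6 epidermis, 6 flower and 6 seed markers had 0. The labelled tissue could therefore not be checked from its defining markers here.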

How the data were processed

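Each of the 8 deposited columns holds the signal intensity of 1 ATH1 array on a linear scale, made with GCOS, per the submitters' processing notes, with version and signal algorithm not given in the sources used here. Scaling by the authors shows in the 2% trimmed mean, 200.02 on all 8. Median signals were between 76.6 and 82.4, and 65.1% to 74.2% of plant probe sets lay above the highest of 27 bacterial controls (DapX, LysX, PheX, ThrX, TrpnX and Bacillus probe sets). No detection calls were used, and the number of arrays limits the precision.

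After the 64 controls were removed, log2(signal + 16) was used without further normalization, and the lowest 30% by mean log2 value were dropped, leaving 15922 of 22746. The limma model (version 3.58.1, R 4.3.3, lmFit and eBayes with a trend) took every array and estimated a mean for each genotype, with 4 residual and 11.27 prior degrees of freedom, and calls are two-sided Benjamini-Hochberg adjusted p under 0.05 over all tested probe sets. The procedure was tested on simulated data. Folds on the log2(signal + 16) scale are understated for dim probe sets.

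Genes were named from the platform annotation, which lists 14016 probe sets (13513 with 1 gene, 503 with several, and 8730 plant probe sets unlisted), and 13436 matched the TAIR10.1 gene table. The genes described, the gene lists and the rules were chosen with earlier results of these data known. Named genes are AT3G55920 and AT5G59330, the 5 most like each, the 10 brightest by Col-0 mean within background in ago1-27 only, list members called in any comparison, and genes within 15 places; a planned choice of relatives nearest in sequence was not made, and AT4G34960, AT2G21130, CYP71 and SQN were named after their values were seen. The wax and cutin list had 1 of 20 genes with a probe set, WSD1, which was too dim to test. Alternatives changed the pseudocount, filter, normalization, eBayes settings, arrays in the fit, replicate block and background level. Replicate numbers are not said to pair arrays, and deviations of same-numbered arrays correlated with r between -0.21 and 0.11 across probe sets.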

Additional observations from a re-analysis of the deposited data

How the results depend on the processing

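The calls of AT3G55920 and AT5G59330 did not change in se-1 p35S::MIR156 against se-1 or against Col-0 under the 13 alternatives of each, nor did that of AT3G55920 in se-1 against Col-0. Signs turned without Col-0 replicate 1 for AT3G55920 in se-1 against Col-0 (range over arrays left out -0.21 to 0.036) and without se-1 p35S::MIR156 replicate 2 for AT5G59330 against Col-0 (-0.66 to 0.0045). The fall of AT5G59330 in se-1 lost its call with pseudocount 1 (-1.12) and, at -1.07, without the filter or without the eBayes trend, and lost it with each array left out (-1.19 to -0.95). The bound of Col-0 over ago1-27 for AT3G55920 was 64.4 with background at the median bacterial signal, 8.53 at the highest over all arrays, and 8.53 to 13.2 with arrays left out. For AT5G59330 it was 101, 13.4, and 13.4 to 20.7. The number of probe sets within background in ago1-27 only was 133 and 56 with those background levels, and 89 to 447 with arrays left out. Probe sets called in ago1-27 against Col-0 numbered 98 with no filter and 81 to 337 with arrays left out. In se-1 against Col-0 they numbered 68 and 32 to 89. In se-1 p35S::MIR156 against se-1 they numbered 15, 25 with eBayes without a trend, and 10 to 41. In se-1 p35S::MIR156 against Col-0 they numbered 28, 75 without a trend, 280 with only these 2 genotypes in the fit, and 14 to 42. With the replicate number as a block the counts in these 4 comparisons were 271, 187, 59 and 143, and no call of AT3G55920 or AT5G59330 changed (AT5G59330 in se-1, adjusted p = 0.0247 by limma). Of 13 calls of other list members and AT5G59305, checked under alternatives chosen after seeing the data, 9 ended under at least 1 alternative and 0 reversed. No filter tests more probe sets and fewer arrays leave fewer degrees of freedom; other causes were not tested.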

Other observations

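Genes for protein folding in the endoplasmic reticulum, the compartment through which secreted proteins pass, had 4 of 15 listed members tested. These were CRT1b, which encodes a calreticulin, ATERDJ3B, BZIP60 and BZIP28, the last pair being transcription factors of the unfolded protein response. In ago1-27 against Col-0, 0 of the 4 were called by limma, near the share of 1.66% over all probe sets, with log2 changes between -0.23 and 0.24 and a lowest adjusted p of 0.604, and 0 had an unadjusted p under 0.05. CRT1b had 1558 ± 70.0 in Col-0 and 1326 ± 3.05 in ago1-27, and BZIP60 had 171 ± 31.2 and 203 ± 16.5 (SD, n = 2). In the other 3 comparisons 0 of the 4 were called by limma (1.09%, 0.358% and 0.842% of all probe sets) and 0 had an unadjusted p under 0.05, with a lowest adjusted p of 0.547.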
